A study of Mus musculus with 2 samples.

Results

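The genes described here encode the enzymes and transporters of central carbon metabolism in CD8+ T cells, namely glycolysis, lactate handling, entry of pyruvate into mitochondria, the pentose phosphate pathway and the tricarboxylic acid (TCA) cycle. They were chosen as 47 gene symbols, 19 for glycolysis, 4 for lactate, 4 for the pyruvate dehydrogenase step, 7 for the pentose phosphate pathway and 13 for the TCA cycle, each matched to the gene symbol of a probe set. Of the 47 genes, 43 were measured among 19505 genes on the array, each by a single probe set. Gpi1 and Eno1 of glycolysis and G6pdx and Tkt of the pentose phosphate pathway were not analysed, since no probe set is named for them here. The choice did not use the measured values, although earlier results of these data were known when it was made.

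Glycolysis splits glucose into pyruvate in the cytosol, and lactate dehydrogenase with the monocarboxylate transporters turns that pyruvate into lactate and carries it out of the cell. The pyruvate dehydrogenase complex sends pyruvate into the TCA cycle in mitochondria instead, and the pentose phosphate pathway draws on glucose 6-phosphate to make NADPH and ribose. Resting T cells rely mostly on mitochondrial oxidation, whereas activated and dividing T cells are known for high glycolysis and lactate export even where oxygen is plentiful.

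The cells were endogenous T cells (en-T cells), sorted as CD8+ and Thy1.1- from spleen and inguinal lymph nodes of female C57BL/6 mice, 6 to 8 weeks of age at inoculation, on day 25 after intradermal injection of the B16F10 melanoma line. All mice had received cyclophosphamide at 300 mg/kg on day 3, Thy1.1+ Pmel-1 T cells with a transgenic receptor for the melanoma antigen gp100 on day 5, and 10000 IU of recombinant human IL-2 daily for 3 days. CTXpre/CD4post mice additionally received 200 μg of the CD4 antibody GK1.5 each week from day 10, and CTXpre mice did not. Each group was 1 array hybridised with RNA pooled from 5 mice, so the spread between mice was not measured, no test was possible and every difference below compares those 2 arrays. Values are log2 expression levels from robust multi-array averaging (RMA), and every difference is CTXpre/CD4post minus CTXpre on that log2 scale. Levels of different probe sets are not set against each other, because probe sets differ in how brightly they report a transcript.

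The sort markers were bright on both arrays, with Cd8a at 11.72 in CTXpre/CD4post cells and 11.47 in CTXpre cells, and Cd8b1 at 11.80 in CTXpre/CD4post cells and 11.70 in CTXpre cells. Transcripts used as markers of other cells were present as well, though not all of them are exclusive to those cells. The paper reports Cd40lg and natural killer cell receptor genes as raised in en-T cells enriched for high IL-18 receptor. Cd4 had a level of 5.98 in CTXpre/CD4post cells and 7.55 in CTXpre cells, 2.97-fold lower. The 6 measured genes of the CD4 and regulatory T cell list lay on both sides of 0, 3 above and 3 below, between -1.57 and 1.81 with a median of 0.09, and Ctla4, an inhibitory receptor, had a level of 7.05 in CTXpre/CD4post cells and 6.54 in CTXpre cells. Of the measured dendritic cell markers, 10 of 12 were at least 1.2-fold lower in CTXpre/CD4post cells, as were 7 of 10 myeloid and 8 of 9 MHC class II genes. The share of all genes above background on at least 1 array was 15.0%. All of these dendritic cell, myeloid and MHC class II genes were above background on at least 1 array. Of the 5 plasma cell genes above background, 2 were lower and 2 higher by that much. Among the other lists, 6 of 10 B cell, 3 of 6 natural killer cell and 2 of 4 erythroid genes were lower by that much. Cell cycle genes ran the other way, with 17 of 21 at least 1.2-fold higher, beside 15.4% of all genes above background, and none lower by that much. In such a bulk sample, fewer cells of a type and less RNA per cell cannot be told apart.

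Most of the metabolic genes had nearly the same level on both arrays. All 43 measured genes were above the background bound on both arrays, a bound set at the 95th percentile of 1447 probe sets for olfactory, vomeronasal and taste receptors (4.33 for CTXpre/CD4post and 4.32 for CTXpre). Of the 43, 25 had a difference above 0 and 18 below 0, so that 58.1% were above 0, beside 51.5% of the 12940 genes above the bound on at least 1 array. Their median difference was 0.04, beside 0.01 over all those genes. The sizes of difference used below are at least 1.2-fold, 1.5-fold and 2-fold by measured levels. Slc16a3, Hk2 and Slc2a3 were at least 1.2-fold higher in CTXpre/CD4post cells, which is 3 of 43, where 15.4% of all genes tested were. Idh1, Taldo1 and Pfkfb3 were at least 1.2-fold lower, again 3 of 43, where 15.0% of all genes tested were. Together these 6 genes were 14% of the measured metabolic genes, beside 30.4% of all genes tested. The 2 sets differ in brightness, since 17 of the 43 but only 2199 of the 12940 had a mean level of at least 8. The share of all genes past 1.2-fold was 45.9% at mean levels between 4 and 5 and 16.3% between 8 and 9. The 30.4% is therefore not a share at matched levels.

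**Figure D1:**
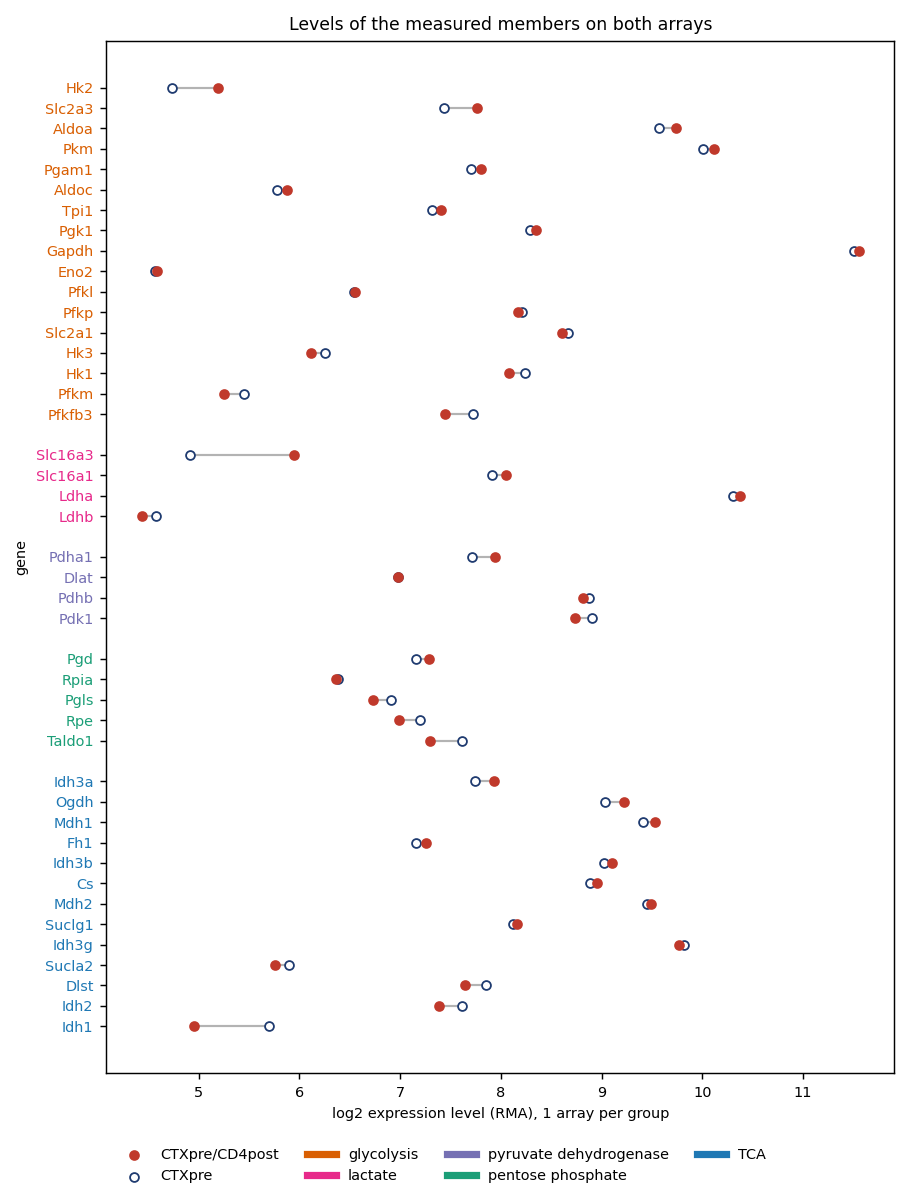
Log2 expression level (RMA, horizontal axis) of each of the 43 measured metabolic genes on the CTXpre/CD4post array (filled red) and the CTXpre array (open blue), with names coloured by group. Most pairs lie close together, and the longest gaps are those of Slc16a3 (5.95 in CTXpre/CD4post and 4.91 in CTXpre) and Idh1 (4.96 in CTXpre/CD4post and 5.70 in CTXpre).

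The plot of levels on both arrays shows how closely the pairs lie, and the spread of all genes gives a scale for the gaps. The median absolute difference was 0.13 over the metabolic genes and 0.17 over all genes tested. Dim probe sets scatter more than bright ones, and between mean levels of 5 and 6 the central 95% of all 2977 genes lay between -0.68 and 0.68. Only Slc16a3 and Idh1, 2 of 43 or 4.65%, lay outside the central 95% of genes in their own unit-wide range of mean level, a band that by construction leaves out 5% of all genes. Of the 17 metabolic genes with a mean level of at least 8, 0 were 1.2-fold higher or lower, whereas 16.9% of the 2199 genes at that level were. Those 17 genes differed by -0.17 to 0.19. They hold the bright probe sets of every group but the pentose phosphate pathway, among them Gapdh, Ldha, Pkm, Cs, Ogdh, Mdh1 and Mdh2.

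**Figure D2:**
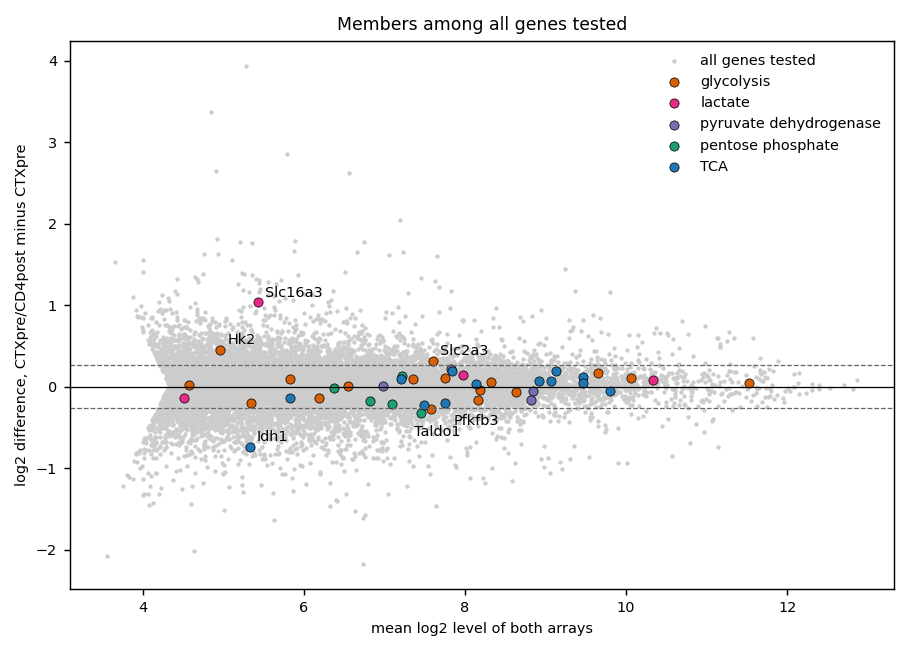
Log2 difference (CTXpre/CD4post minus CTXpre, vertical axis) against the mean log2 level of both arrays (horizontal axis) for all 12940 genes tested (grey) and the 43 metabolic genes (coloured by group), with dashed lines at 1.2-fold. The metabolic genes hug the line at 0, Slc16a3 (1.04) and Idh1 (-0.74) lie farthest from it, and the 6 named genes all have mean levels under 8.

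Uptake of glucose was represented by a pair of transporters that differed in opposite directions. Slc2a3 encodes GLUT3, a high-affinity glucose transporter, and had a level of 7.76 in CTXpre/CD4post cells and 7.44 in CTXpre cells, 1.25-fold higher. Slc2a1 encodes GLUT1, the transporter best known from activated T cells, and had a level of 8.61 in CTXpre/CD4post cells and 8.67 in CTXpre cells, a difference of -0.06. Slc2a3 therefore passed the 1.2-fold size and Slc2a1 did not. The difference of 0.32 for Slc2a3 lay within the central 95% of genes with mean levels between 7 and 8, -0.46 to 0.47.

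Hexokinases trap glucose in the cell as glucose 6-phosphate, and the 3 measured here did not run together. Hk2, the isozyme induced in proliferating and hypoxic cells, had a level of 5.19 in CTXpre/CD4post cells and 4.74 in CTXpre cells, 1.37-fold higher. Hk1, the constitutive isozyme, had a level of 8.08 in CTXpre/CD4post cells and 8.24 in CTXpre cells. Hk3, found mainly in myeloid cells, had a level of 6.11 in CTXpre/CD4post cells and 6.25 in CTXpre cells. Hk2 was thus higher on the CTXpre/CD4post array while the differences of Hk1 and Hk3 were -0.16 and -0.14, both under 1.2-fold. The Hk2 probe set was dim, and genes with mean levels between 4 and 5 had a central 95% of -0.74 to 0.76, which holds its difference of 0.46. When a constant of 32 was put on top of every linear value, a step that pulls dim probe sets towards 0, Hk2 stood at 0.22, under 1.2-fold. The myeloid markers beside which Hk3 is read had a summed level, the log2 of their added linear levels, of 9.46 in CTXpre/CD4post cells and 10.22 in CTXpre cells, and their part in the Hk3 value was not tested.

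Phosphofructokinase, the committed step of glycolysis, is built of 3 kinds of subunit, which differed by -0.20 to 0.01. Pfkp, the platelet type, had a level of 8.17 in CTXpre/CD4post cells and 8.21 in CTXpre cells. Pfkl, the liver type, had a level of 6.55 on both arrays. Pfkm, the muscle type, had a level of 5.25 in CTXpre/CD4post cells and 5.45 in CTXpre cells, the lowest difference of the 3 but under 1.2-fold. Pfkfb3 makes fructose 2,6-bisphosphate, the activator of phosphofructokinase, and had a level of 7.45 in CTXpre/CD4post cells and 7.72 in CTXpre cells. At 1.21-fold lower it only just passed the 1.2-fold size, and it was the sole glycolytic gene to do so in that direction. With the same constant it no longer passed, at -0.23. Its neighbours on the other side of that line were Pdha1, at 0.22, and Idh2, at -0.23.

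The enzymes from aldolase to pyruvate kinase, which cut the sugar and harvest ATP and NADH from it, had small differences. All 8 measured genes of this stretch were above 0, with differences between 0.02 and 0.17 and a median of 0.09, and 0 reached 1.2-fold. The share of all genes tested above 0 was the 51.5% given above, and with a lowess trend on level removed Gapdh fell just below 0, at -0.0041. The highest of them was Aldoa, the main aldolase of most cells, with a level of 9.74 in CTXpre/CD4post cells and 9.57 in CTXpre cells. Pkm, pyruvate kinase, had a level of 10.11 in CTXpre/CD4post cells and 10.01 in CTXpre cells. Gapdh, glyceraldehyde-3-phosphate dehydrogenase, had a level of 11.55 in CTXpre/CD4post cells and 11.51 in CTXpre cells. All of these differences lay inside the central 95% of genes at their level. The other 5 were Pgam1 (phosphoglycerate mutase) at 0.10, Aldoc (a second aldolase) and Tpi1 (triosephosphate isomerase) at 0.09 each, Pgk1 (phosphoglycerate kinase) at 0.06 and Eno2 (an enolase) at 0.02. Eno2 was dim, at 4.59 in CTXpre/CD4post cells and 4.57 in CTXpre cells, close above the background bound. Over all 17 measured glycolytic genes the median difference was 0.04, with 11 above 0 and 6 below, and with 2 genes past 1.2-fold on the higher side and 1 on the lower side.

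**Figure D3:**
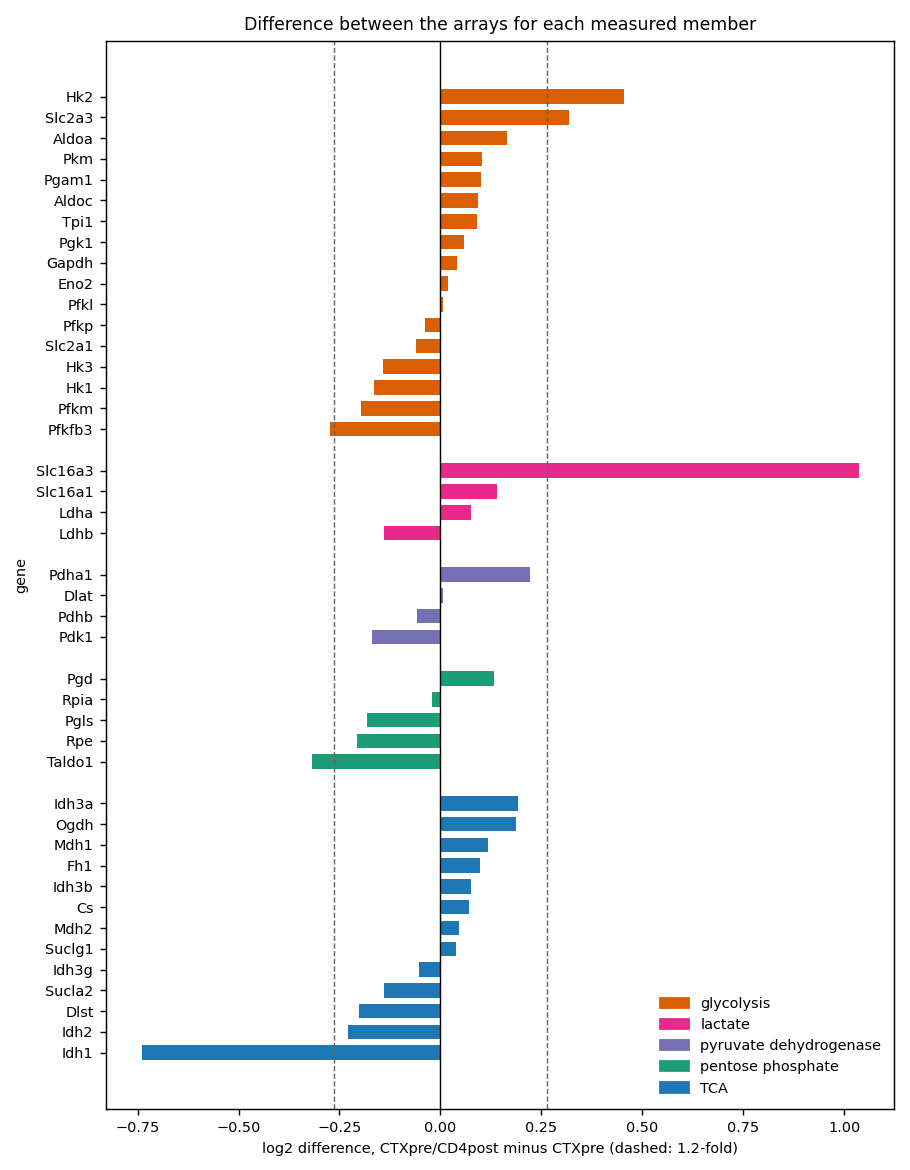
Log2 difference (CTXpre/CD4post minus CTXpre, horizontal axis) of each measured metabolic gene, one bar per gene in order within its group, with dashed lines at 1.2-fold. Bars past the dashed lines are Hk2, Slc2a3 and Slc16a3 on the higher side and Pfkfb3, Taldo1 and Idh1 on the lower side, and the other 37 stay between them.

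Lactate export gave the highest difference of all the metabolic genes. Slc16a3 encodes MCT4, a low-affinity monocarboxylate transporter that carries lactate out of highly glycolytic cells, and had a level of 5.95 in CTXpre/CD4post cells and 4.91 in CTXpre cells. The difference of 1.04 is 2.05-fold higher and ranked 69 of 12940 from the highest, where 3.08% of all genes tested passed 1.5-fold and 0.549% passed 2-fold on the higher side. Slc16a3 was the one metabolic gene past 1.5-fold in that direction. Its probe set was dim in CTXpre cells. With the bound moved to the 99th percentile of the receptor probe sets (5.09 for CTXpre/CD4post and 5.12 for CTXpre), the CTXpre level is not above background, and the value is at least 1.77-fold higher. The constant of 32 brought the difference to 0.59. Under the same bound Hk2 is also above background in CTXpre/CD4post cells alone, at least 1.05-fold higher.

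The other lactate genes differed little. Slc16a1 encodes MCT1, which carries lactate both ways, and had a level of 8.05 in CTXpre/CD4post cells and 7.91 in CTXpre cells. Ldha, the subunit of lactate dehydrogenase that favours making lactate, had a level of 10.38 in CTXpre/CD4post cells and 10.30 in CTXpre cells. Ldhb, the subunit that favours using lactate, had a level of 4.44 in CTXpre/CD4post cells and 4.58 in CTXpre cells. None of these 3 reached 1.2-fold, and Ldhb, like Eno2, is above background on neither array with the 99th percentile bound. The median over the 4 lactate genes was 0.11, with 3 above 0. The chaperones of these transporters differed in opposite directions, since Bsg (basigin, partner of MCT1 and MCT4) had a level of 10.20 in CTXpre/CD4post cells and 9.92 in CTXpre cells, and Emb (embigin, a related partner) had 9.08 in CTXpre/CD4post cells and 9.40 in CTXpre cells. Both passed 1.2-fold. The summed level of the 21 cell cycle genes was 12.62 in CTXpre/CD4post cells and 12.14 in CTXpre cells, and their part in the Slc16a3 and Hk2 values was not tested.

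Promoter sequence is shown for the pair of genes with the highest differences and for the one with the lowest, because ACGTG, the core of the HIF response element, is a known feature of hypoxia-inducible glycolytic genes. The sequences are from RefSeq on build GRCm38.p6, and both strands were searched in the 250 bases before each start. ACGTG lies within CACGTG, the E-box bound by MYC and USF factors, so a match to the longer motif is also a match to the shorter. Capitals mark ACGTG, or CACGT where it reads on the other strand. The Slc16a3 bases end at the gene's start and are the last 30 before it, at chr11:120949037-120949066 on the plus strand, with matches beginning 27 and 14 bases before the start. The Hk2 window is chr6:82774455-82774704 on the minus strand, and its 2 matches begin 226 and 52 bases before the start. The Idh1 window is chr1:65186480-65186729 on the minus strand and belongs to the outermost of 2 listed starts, with 0 matches.
Slc16a3: gtgACGTGcgcgggggACGTGccgcgcgac
Hk2: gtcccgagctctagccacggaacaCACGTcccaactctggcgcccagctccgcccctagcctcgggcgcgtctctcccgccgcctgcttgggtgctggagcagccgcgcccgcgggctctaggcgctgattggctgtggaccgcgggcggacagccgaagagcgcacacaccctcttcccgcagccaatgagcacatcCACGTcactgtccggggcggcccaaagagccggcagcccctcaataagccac
Idh1: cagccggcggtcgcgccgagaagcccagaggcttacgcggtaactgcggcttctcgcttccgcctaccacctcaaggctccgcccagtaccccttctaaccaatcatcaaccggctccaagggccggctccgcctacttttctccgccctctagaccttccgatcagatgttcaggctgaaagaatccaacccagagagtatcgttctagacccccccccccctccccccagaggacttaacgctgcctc

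Such matches are common and were not limited to the genes that differed. ACGTG was found in 16.6% of 32851 windows of all genes and in 24 of the 65 windows of the metabolic genes (36.9%), which belong to 16 of the 45 metabolic genes with a window. CACGTG was found in 6.02% of all windows and in 7 of the 65 (10.8%). Windows of one gene overlap, and base composition differs between promoters, so these shares describe the windows and no more. The 16 metabolic genes with ACGTG had a median difference of 0.09, between -0.27 (Pfkfb3) and 1.04 (Slc16a3), with 10 above 0. The 25 measured genes with a window but no match had a median of 0.01, between -0.74 (Idh1) and 0.22 (Pdha1), with 13 above 0. Slc2a3 (0.32) and Idh3a (0.19) had no promoter sequence in the source used here and are in neither set. Aldoa, Pgam1, Pgk1, Pkm and Ldha hold ACGTG and differed by 0.17 or less, so that the motif was found beside both high and near-0 differences.

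At the entry to mitochondria the genes lay on both sides of 0 and none reached 1.2-fold. Pdha1, the catalytic E1 alpha subunit of pyruvate dehydrogenase, had a level of 7.94 in CTXpre/CD4post cells and 7.72 in CTXpre cells. Pdhb, the E1 beta subunit, had a level of 8.81 in CTXpre/CD4post cells and 8.87 in CTXpre cells. Dlat, the E2 subunit, had a level of 6.98 on both arrays. The subunits of this one complex thus differed by 0.22, -0.06 and 0.01. Pdk1, the kinase that switches the complex off, had a level of 8.74 in CTXpre/CD4post cells and 8.91 in CTXpre cells, a difference of -0.17. The median of the 4 genes was -0.03.

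The pentose phosphate pathway was the group with the lowest median, -0.18 over 5 measured genes, 4 of them below 0. Taldo1, transaldolase, which moves 3-carbon units between sugars in the non-oxidative branch, had a level of 7.30 in CTXpre/CD4post cells and 7.62 in CTXpre cells, 1.25-fold lower. Rpe, ribulose-phosphate epimerase, had a level of 6.99 in CTXpre/CD4post cells and 7.19 in CTXpre cells. Rpia, ribose 5-phosphate isomerase, had a level of 6.37 in CTXpre/CD4post cells and 6.39 in CTXpre cells. All 3 genes of the non-oxidative branch were therefore below 0, between -0.32 and -0.02. In the oxidative branch, which makes NADPH, the 2 measured enzymes differed in opposite directions. Pgls, 6-phosphogluconolactonase, had a level of 6.73 in CTXpre/CD4post cells and 6.91 in CTXpre cells, and Pgd, 6-phosphogluconate dehydrogenase, had 7.29 in CTXpre/CD4post cells and 7.16 in CTXpre cells. The first enzyme of that branch, encoded by G6pdx, and transketolase, encoded by Tkt, are among the genes with no probe set named here, so the group is incomplete. The Taldo1 difference lay within the central 95% of genes at its level.

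The TCA cycle held the lowest difference of all the metabolic genes. Idh1, the cytosolic isocitrate dehydrogenase that makes NADPH outside the mitochondrial cycle, had a level of 4.96 in CTXpre/CD4post cells and 5.70 in CTXpre cells. The difference of -0.74 is 1.67-fold lower and ranked 236 of 12940 from the lowest, where 3.40% of all genes tested were at least 1.5-fold lower. With the 99th percentile bound Idh1 is above background in CTXpre cells alone and at least 1.52-fold lower in CTXpre/CD4post cells, and with the constant of 32 its difference was -0.41. Most marker lists of other cell types had a median on the same side of 0 as Idh1. These were the dendritic cell, myeloid, MHC class II, B cell, plasma cell, natural killer cell and erythroid lists. The CD4 and regulatory T cell list, with a median of 0.09, lay on the other side. Its measured genes were split, 3 above 0 and 3 below, and Cd4 itself was 2.97-fold lower in CTXpre/CD4post cells. The dendritic cell markers had a summed level of 10.26 in CTXpre/CD4post cells and 10.79 in CTXpre cells, and the MHC class II genes had 12.47 in CTXpre/CD4post cells and 13.21 in CTXpre cells. With the myeloid sums given above, these were all lower in CTXpre/CD4post cells, and their part in the Idh1 and Taldo1 values was not tested.

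The other isocitrate dehydrogenase genes differed less than Idh1. Idh2, the mitochondrial enzyme that also uses NADP, had a level of 7.38 in CTXpre/CD4post cells and 7.61 in CTXpre cells, so both NADP-dependent enzymes were below 0. The NAD-dependent enzyme of the cycle is built of Idh3a, Idh3b and Idh3g subunits. Idh3a, the catalytic subunit, had a level of 7.93 in CTXpre/CD4post cells and 7.74 in CTXpre cells. Idh3b had a level of 9.10 in CTXpre/CD4post cells and 9.03 in CTXpre cells, and Idh3g had 9.77 in CTXpre/CD4post cells and 9.82 in CTXpre cells. The 3 NAD-dependent subunits thus differed by only -0.05 to 0.19, and apart from Idh1 none of the isocitrate dehydrogenase genes reached 1.2-fold.

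The remaining genes of the cycle were close to 0. Ogdh, the E1 subunit of 2-oxoglutarate dehydrogenase, had a level of 9.22 in CTXpre/CD4post cells and 9.03 in CTXpre cells, whereas Dlst, the E2 subunit of that complex, had 7.65 in CTXpre/CD4post cells and 7.85 in CTXpre cells. Subunits of one complex thus stood at 0.19 and -0.20. Mdh1, the cytosolic malate dehydrogenase, had a level of 9.52 in CTXpre/CD4post cells and 9.41 in CTXpre cells, and the mitochondrial Mdh2 had 9.49 in CTXpre/CD4post cells and 9.45 in CTXpre cells. Cs, citrate synthase, had a level of 8.95 in CTXpre/CD4post cells and 8.88 in CTXpre cells. Fh1, fumarate hydratase, differed by 0.10. Suclg1 and Sucla2, subunits of succinyl-CoA ligase, differed by 0.04 and -0.14. Of the 12 TCA genes other than Idh1, 8 were above 0 and 4 below, with a range of -0.23 to 0.19 and a median of 0.06. With Idh1 the 13 genes had a median of 0.05 and a mean of -0.04, so the sign of the group's centre depends on which is taken.

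Other genes of the same pathways, not among the 47, also had medians close to 0. The other glycolysis genes had a median of 0.01 over 22 genes above background. Of these, 4 passed 1.2-fold on the higher side and 3 on the lower side, beside 15.4% and 15.0% of all genes tested. The most different of the 22 was Tigar, a fructose-2,6-bisphosphatase, at 6.06 in CTXpre/CD4post cells and 5.38 in CTXpre cells. Next came Pklr, the liver and red cell pyruvate kinase, at 5.79 in CTXpre/CD4post cells and 6.45 in CTXpre cells, and Galm, galactose mutarotase, at 6.50 in CTXpre/CD4post cells and 5.91 in CTXpre cells. The other genes of pyruvate entry had a median of -0.12 over 9 genes, 2 of them above 0. Pdk4, a further kinase of the complex, had a level of 4.92 in CTXpre/CD4post cells and 4.42 in CTXpre cells, and thus lay on the other side of 0 from Pdk1. The other pentose phosphate genes had a median of 0.09 over 6 genes, on the other side of 0 from the -0.18 of the pentose phosphate genes above. Among them Tktl1, a transketolase-like protein, had a level of 5.03 in CTXpre/CD4post cells and 4.58 in CTXpre cells, and Rbks, ribokinase, had 6.25 in CTXpre/CD4post cells and 6.57 in CTXpre cells.

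The other TCA genes lay mostly above 0, by small sizes. Of the 17 above background, 15 were above 0, beside 51.5% of all genes tested, with a median of 0.15. In each direction 1 passed 1.2-fold, beside 15.4% of all genes tested on the higher side and 15.0% on the lower side. Sdha, the flavoprotein of succinate dehydrogenase, had a level of 6.91 in CTXpre/CD4post cells and 6.44 in CTXpre cells, 1.38-fold higher. Slc25a10, the mitochondrial dicarboxylate carrier, had a level of 6.18 in CTXpre/CD4post cells and 6.68 in CTXpre cells, 1.41-fold lower. The other 3 subunits of succinate dehydrogenase, Sdhb, Sdhc and Sdhd, differed by 0.22, 0.22 and 0.21. They were singled out after their values were seen, and each was under 1.2-fold.

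**Figure D4:**
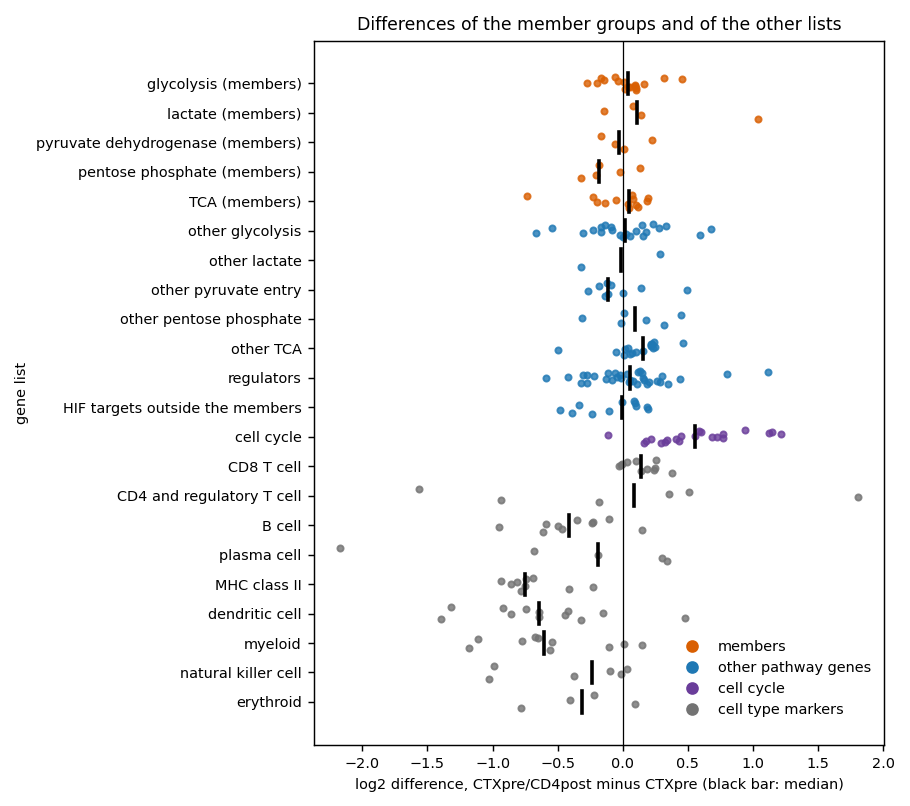
Log2 difference (CTXpre/CD4post minus CTXpre, horizontal axis) of every gene above background in each list, one point per gene and a black bar at the median. Medians of the 5 metabolic groups lie between -0.18 and 0.11 and those of the other pathway lists between -0.12 and 0.15, while the cell cycle list stands at 0.56 and the dendritic cell, myeloid and MHC class II lists at -0.64, -0.61 and -0.75.

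The plot of all lists sets the metabolic groups between the cell cycle genes and the dendritic cell, myeloid and MHC class II lists. Every metabolic group has a median closer to 0 than those lists have. This does not hold for the CD4 and regulatory T cell list or for the CD8 T cell list. The CD4 and regulatory T cell median of 0.09 is closer to 0 than those of the lactate and pentose phosphate groups. The CD8 T cell median of 0.14 is closer to 0 than that of the pentose phosphate group. The widest metabolic groups are the lactate genes, through Slc16a3, and the TCA genes, through Idh1.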

How the data were processed

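The data were deposited by the authors as log2 expression levels from Affymetrix Clariom S mouse arrays, made with RMA in Affymetrix Power Tools (versions and probe annotation build not given in the sources used here). RMA corrects background, brings both arrays to one distribution and combines the probes of a probe set, so a shift of total RNA between groups cannot be seen. Groups followed the treatment labels, with 1 array each. The number of arrays limits the precision.

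Of 22206 probe sets, 19572 carried 1 symbol, 0 several and 2634 are unnamed here. The probe set with the highest mean stood for a gene. All 43 measured genes of interest were found in RefSeq by Entrez identifier, and 0 symbols changed. Genes above the background bound on at least 1 array were counted as tested. Genes were called by size (1.2-fold, 1.5-fold or 2-fold), without tests or p-values. No column was left unused (0). Members and gene lists were chosen with earlier results of these data known. Beyond the metabolic genes, up to 3 genes per pathway list with the largest absolute difference above background on both arrays were named, and of markers Cd8a, Cd8b1 and up to 2 per list by CTXpre level. Alternatives were centring, a second quantile normalization, removal of a lowess trend (fraction 0.3), 32 added to linear values, other bounds and sizes, and group means. Scripts ran in Python 3.11.15 with numpy 2.4.6, pandas 2.3.3 and statsmodels 0.14.6, and were tested on simulated data.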

Additional observations from a re-analysis of the deposited data

How the results depend on the processing

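Each array held a pool and no group had a replicate, so no difference was set against a spread between samples. No paired analysis was possible because each group had 1 array. Centring, a second quantile normalization and removal of a lowess trend moved each of the 43 metabolic genes by less than 0.1. Of genes close to 0, Pfkl (-0.003025) and Dlat (-0.002125) changed side when centred, and Gapdh (-0.0041) with the lowess trend removed. With 32 added to the linear values all 43 kept their side and 40 moved by less than 0.1, while Slc16a3 stood at 0.59, Hk2 at 0.22 and Idh1 at -0.41. Dim levels are compressed by that addition. No gene of the 43 had a second probe set, so the mean of all probe sets gave identical medians and other probe sets gave no values, and no pentose phosphate gene had a mean level of at least 8.

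Counts depended on the size asked for. Of the 3 genes at least 1.2-fold higher, 1 remained at 1.5-fold and 1 at 2-fold (Slc16a3), and of the 3 at least 1.2-fold lower, 1 remained at 1.5-fold (Idh1) and 0 at 2-fold. With a mean level of at least 8, 0 were higher and 0 lower among 17 genes. Medians of the groups moved by less than 0.1 in all settings tried but one, since the mean of the 4 lactate genes was 0.28, drawn up by Slc16a3. Medians near 0 changed sign with the mean, TCA (-0.04) and pyruvate dehydrogenase (0.00089).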

Other observations

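Regulators of these pathways and HIF targets outside the metabolic genes are given as values alone. The regulators had a median difference of 0.05 over the 33 that were above the background bound. Of these, 19 were above 0, 7 past 1.2-fold on the higher side and 6 on the lower side. The shares of all genes tested were 51.5%, 15.4% and 15.0% in the same order. Epas1, which encodes HIF-2 alpha, was above background in CTXpre/CD4post cells alone, at 4.80 there and 3.68 in CTXpre cells, at least 1.40-fold higher against the bound. It lies outside the naming rule, which asks for both arrays, and was chosen after its values were seen. Egln3, a prolyl hydroxylase that marks HIF for degradation and is itself a HIF target, had a level of 5.43 in CTXpre/CD4post cells and 4.63 in CTXpre cells, 1.74-fold higher. With the 99th percentile bound (5.09 for CTXpre/CD4post and 5.12 for CTXpre), Epas1 is above background on neither array. Egln3 is then above background in CTXpre/CD4post cells alone, so its 1.74-fold rests on a CTXpre level within background. Rptor, the scaffold of mTORC1, had a level of 7.49 in CTXpre/CD4post cells and 7.05 in CTXpre cells. Arrdc4, a target of the glucose-sensing MondoA and ChREBP factors, had a level of 6.28 in CTXpre/CD4post cells and 6.87 in CTXpre cells. Txnip, another target of those factors and an inhibitor of glucose uptake, was chosen after its values were seen and had a level of 10.85 in CTXpre/CD4post cells and 11.27 in CTXpre cells.

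A list of 13 other HIF targets, which holds neither the metabolic genes nor Egln3, lay on both sides of 0, 5 above and 6 below. The median was -0.01 over the 11 genes above background. On the higher side 0 passed 1.2-fold, beside 15.4% of all genes tested, and on the lower side 3 did, beside 15.0%. Those 3 were Ddit4, an mTORC1 inhibitor, at 7.04 in CTXpre/CD4post cells and 7.52 in CTXpre cells, Kdm3a, a histone demethylase, at 6.11 in CTXpre/CD4post cells and 6.50 in CTXpre cells, and Ankrd37 at 4.90 in CTXpre/CD4post cells and 5.23 in CTXpre cells.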
